A study of Mus musculus with 12 samples.

Results

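The genes described here are Mcm2, Mcm3, Mcm4, Mcm5, Mcm6, Mcm7 and Mcm10, the minichromosome maintenance (MCM) genes of the DNA replication machinery. They were chosen as all array probe sets that the platform annotation gives to 1 of these 7 symbols, current or former, which found 18 of the 22690 probe sets. Of the 18, 16 passed the filter on weak signal and were tested among 13575 probe sets that stand for 7945 genes. The other 2 were a second probe set of Mcm10 and 1 of the 5 probe sets of Mcm3, so every gene kept at least 1.

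MCM2 to MCM7 form a ring of different but related subunits that is loaded onto origins of replication in G1 phase by the origin recognition complex together with CDC6 and CDT1. At the start of S phase the kinases CDC7-DBF4 and CDK, with CDC45 and the GINS complex, turn the ring into the active helicase that opens DNA ahead of the fork. MCM10 is no member of the ring and assists its activation. E2F transcription factors activate genes of this kind, and the retinoblastoma protein, the product of Rb1, binds E2F and restrains them until cells enter the cycle.

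RNA came from mouse embryonic fibroblasts (MEFs), primary cultures of connective tissue cells made at embryonic day 13.5 and harvested at passage 2. The 4 groups were Rb null MEFs exposed to 16 µM cisplatin, which crosslinks DNA, for 24 h, wildtype MEFs exposed in the same way, untreated Rb null MEFs and untreated wildtype MEFs. Each group had 3 Affymetrix arrays, 12 in all. The design describes 1 RNA sample per group that was hybridized 3 times, so p-values measure the spread between hybridizations, which may be only technical, and the labels do not say how many embryos or cultures stood behind a sample. The labels give the genotype as Rb null, without the construct, and name no other allele.

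Values are signal intensities per probe set on the authors' scale, in arbitrary units, and are compared between groups for the same probe set only. The 2%-trimmed mean of every array was 500.1 or 500.2, and arrays of the same group correlated at 0.981 to 0.992 over the tested probe sets, against 0.806 to 0.952 between groups. Rb1 signal averaged 89.6 in cisplatin-treated Rb null cells and 383 in cisplatin-treated wildtype cells. Untreated, it averaged 94.0 in Rb null cells and 460 in wildtype cells (n = 3 arrays each), so Rb1 went with the genotype labels. Within each genotype its arrays overlapped between treatments, so it does not check the treatment labels. The untreated wildtype arrays stood apart in sex-linked transcripts. Xist averaged 3443, 2379 and 3139 in cisplatin-treated Rb null, cisplatin-treated wildtype and untreated Rb null cells, and 132 in untreated wildtype cells, while the Y-linked Eif2s3y averaged 6.63, 1.27 and 1.43 in the same 3 groups and 478 in untreated wildtype cells. In every comparison with untreated wildtype cells, a difference in the embryos and a difference in genotype or treatment cannot be told apart. With 1 RNA sample per group, a difference between cultures cannot be told apart from genotype or treatment in the other comparisons either. Of the markers of the labelled cell type, 15 of 15 fibroblast genes passed the filter on weak signal. So did 13 of 15 macrophage and leukocyte genes, so passing it does not single out fibroblasts.

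The stretch around the transcript start is shown first for the members whose start regions hold the E2F motif and, beside them, for Mcm2 and Mcm10, whose 300 bases hold no full match. RefSeq start regions on GRCm38.p6, 300 bases each with 250 before and 50 after the start, were at hand for Mcm2, Mcm3, Mcm5, Mcm6, Mcm7 (2 starts) and Mcm10. Capitals mark the letters TTTCCCGC, TTTGGCGC, TTTCGCGC or TTTGCCGC, forms of the E2F motif, and a looser set, TTCCCGCC, TTGGCGCC, TTCGCGCC and TTGGCGGG, which overlaps with the first, each on either strand. All are written 5′ to 3′ on the strand of the gene. Mcm2 (chr6:88898731-88899030, minus strand), Mcm3 (chr1:20820263-20820562, minus strand), Mcm5 (chr8:75109259-75109558, plus strand), Mcm6 (chr1:128359656-128359955, minus strand), the upstream start of Mcm7 (chr5:138171834-138172133, minus strand) and Mcm10 (chr2:5012742-5013041, minus strand) read as follows.
Mcm2: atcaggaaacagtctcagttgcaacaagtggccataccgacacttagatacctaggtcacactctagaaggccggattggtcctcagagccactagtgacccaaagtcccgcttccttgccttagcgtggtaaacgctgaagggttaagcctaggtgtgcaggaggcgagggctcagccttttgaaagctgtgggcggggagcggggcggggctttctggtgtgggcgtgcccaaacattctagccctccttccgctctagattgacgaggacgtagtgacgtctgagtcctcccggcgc
Mcm3: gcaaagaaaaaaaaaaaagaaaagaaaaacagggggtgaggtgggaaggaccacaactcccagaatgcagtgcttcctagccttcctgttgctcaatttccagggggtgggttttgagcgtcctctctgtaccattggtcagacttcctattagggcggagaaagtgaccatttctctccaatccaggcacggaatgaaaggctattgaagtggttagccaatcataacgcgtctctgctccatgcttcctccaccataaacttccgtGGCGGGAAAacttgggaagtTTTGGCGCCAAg
Mcm5: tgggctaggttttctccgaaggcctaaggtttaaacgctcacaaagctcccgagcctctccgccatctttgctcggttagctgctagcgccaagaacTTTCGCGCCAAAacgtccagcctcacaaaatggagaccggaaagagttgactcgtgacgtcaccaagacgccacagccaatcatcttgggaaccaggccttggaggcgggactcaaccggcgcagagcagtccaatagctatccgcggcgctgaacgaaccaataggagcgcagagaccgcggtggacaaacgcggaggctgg
Mcm6: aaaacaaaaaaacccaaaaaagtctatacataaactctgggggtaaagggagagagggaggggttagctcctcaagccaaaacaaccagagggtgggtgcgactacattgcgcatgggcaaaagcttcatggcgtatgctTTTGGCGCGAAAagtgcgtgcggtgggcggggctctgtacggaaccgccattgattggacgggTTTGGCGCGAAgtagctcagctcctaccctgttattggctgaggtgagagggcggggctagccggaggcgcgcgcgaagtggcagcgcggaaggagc
Mcm7: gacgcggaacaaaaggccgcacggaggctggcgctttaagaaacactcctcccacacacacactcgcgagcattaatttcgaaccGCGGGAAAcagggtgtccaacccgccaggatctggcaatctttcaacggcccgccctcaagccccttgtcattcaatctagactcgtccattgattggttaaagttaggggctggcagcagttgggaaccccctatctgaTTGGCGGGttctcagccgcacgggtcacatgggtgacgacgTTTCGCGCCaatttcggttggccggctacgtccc
Mcm10: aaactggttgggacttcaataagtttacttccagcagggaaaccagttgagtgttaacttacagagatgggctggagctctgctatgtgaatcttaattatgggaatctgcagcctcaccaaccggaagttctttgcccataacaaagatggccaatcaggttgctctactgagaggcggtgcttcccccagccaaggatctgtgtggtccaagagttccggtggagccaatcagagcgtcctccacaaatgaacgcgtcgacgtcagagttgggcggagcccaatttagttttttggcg

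The first set of E2F letters stood in 4 of the 7 start regions of members, those of Mcm3, Mcm5, Mcm6 and the upstream start of Mcm7, and in 744 of all 32851 mouse start regions, or 2.26%. Mcm6 had 3 matches, beginning 110, 106 and 47 bases before the start, of which the first pair overlap on opposite strands. Mcm5 had an overlapping pair at 153 and 149 bases before the start, Mcm3 a match at 20 and 1 at 39 bases after it, and Mcm7 a match at 165 bases before and 1 at 17 bases after it. The looser set was found in the same 4 regions and in 4.26% of all start regions. Neither set was found in the windows of Mcm2, Mcm10 or the downstream start of Mcm7, which says only that these letters are not in those windows. The Mcm10 window ends with the first 7 letters of TTTGGCGC, so a match across its edge would have been missed. The CCAAT box, searched as CCAAT on both strands, stood in all 7 windows of members and in 37.4% of all windows, and the GC box GGGCGG in 6 of 7 and in 35.7%.

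**Figure D1:**
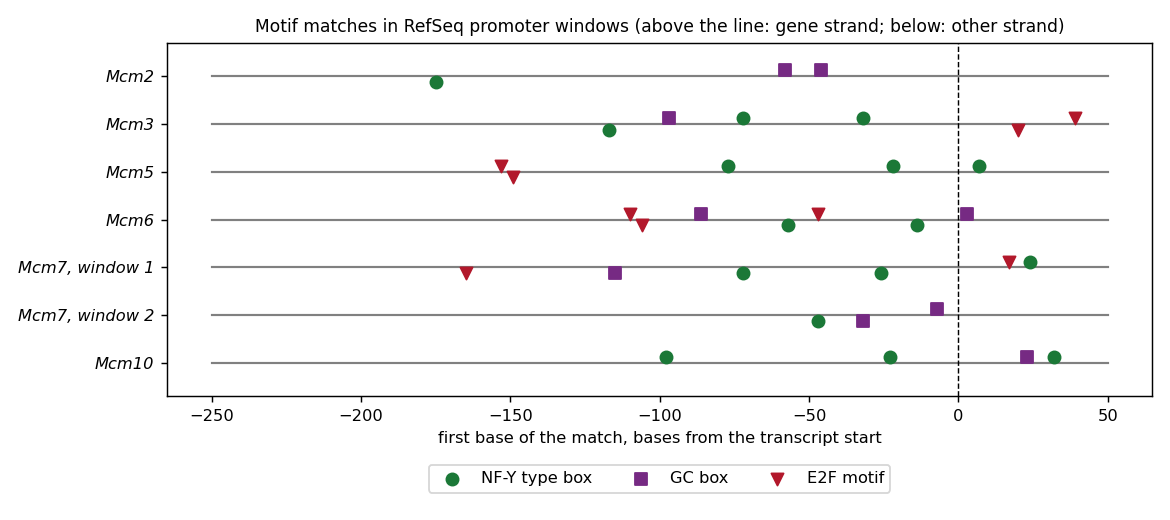
Motif matches in the 7 RefSeq start regions of 6 MCM genes, by the distance in bases of the first base of a match from the transcript start, with matches on the gene's strand above each line and on the other strand below it. E2F matches are drawn in the windows of Mcm3, Mcm5, Mcm6 and the upstream start of Mcm7, and CCAAT boxes in all 7 windows.

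On the probe set counted for each gene, the MCM genes kept nearly the same order across the 4 groups. In 6 of 7 the mean signal was highest in cisplatin-treated Rb null cells, followed by untreated Rb null cells, cisplatin-treated wildtype cells and untreated wildtype cells. In Mcm6 the first pair was turned round, but its arrays overlapped between these 2 groups, as did those of Mcm5. In 6 of 7 genes every untreated Rb null array was above every cisplatin-treated wildtype array, and in Mcm7 these 2 groups overlapped. Other probe sets differed here. On 1449705_x_at of Mcm3, which can cross-hybridize, every untreated Rb null array (735.1 to 777.2) was below every cisplatin-treated wildtype array (784.3 to 976.6). The 2 groups overlapped on 1436708_x_at of Mcm4 and 1438852_x_at of Mcm6. They were apart on 1416030_a_at and 1416031_s_at of Mcm7. The untreated wildtype arrays were below all other arrays for every one of the 7 genes. The share of all tested genes with ranges this separate was not counted. Ranges of 3 hybridizations can part for small changes too. Orc2, an origin recognition subunit, averaged 464 in cisplatin-treated and 421 in untreated wildtype cells without overlap, while Orc3, at 377 and 452, overlapped. In RNA of a whole culture, fewer cells in the cycle and less RNA per cell cannot be told apart.

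Mcm2, the ring subunit whose tail also binds histones, gave 1786.3, 2196.4 and 1985.5 in cisplatin-treated Rb null cells and 1216.7, 1237.7 and 1187.8 in cisplatin-treated wildtype cells. Untreated, it gave 1644.6, 1463.9 and 1616.6 in Rb null cells and 548.2, 532.8 and 612.5 in wildtype cells. The 4 groups formed 4 separate ranges on this probe set, the one counted for Mcm2. On the other, 1434079_s_at, the 2 Rb null groups overlapped. Mcm5, which meets Mcm2 at the gate through which DNA enters the ring, gave 1333.2, 1654.0 and 1574.0 in cisplatin-treated Rb null cells and 1087.9, 928.7 and 942.7 in cisplatin-treated wildtype cells. Untreated, it gave 1308.1, 1245.2 and 1370.5 in Rb null cells and 443.6, 403.0 and 396.6 in wildtype cells. Both genotypes were apart at each treatment, and the Rb null groups ran into each other. Mcm3, the neighbour of Mcm5 in the ring, gave 3086.1, 3103.8 and 3137.7 in cisplatin-treated Rb null cells and 1694.0, 1722.1 and 1714.1 in cisplatin-treated wildtype cells. Its untreated signal was 1952.7, 2069.0 and 2144.6 in Rb null cells and 515.8, 520.0 and 569.6 in wildtype cells, so no group overlapped with another.

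Mcm4, Mcm6 and Mcm7 form the part of the ring that unwinds DNA by itself in the test tube. Mcm4 gave 2796.0, 3122.7 and 2799.4 in cisplatin-treated Rb null cells and 1757.2, 1853.1 and 1872.2 in cisplatin-treated wildtype cells. Its untreated signal was 2242.3, 2271.5 and 2267.6 in Rb null cells and 1033.5, 924.8 and 898.3 in wildtype cells. The groups were again apart on the probe set counted for the gene. Mcm6 gave 2704.2, 2619.6 and 3086.2 in cisplatin-treated Rb null cells and 1579.4, 1708.7 and 1766.3 in cisplatin-treated wildtype cells. Its untreated signal was 2587.6, 3026.8 and 3023.4 in Rb null cells and 683.0, 582.8 and 631.6 in wildtype cells. Here the 6 Rb null arrays shared a range, while both wildtype groups lay below it and apart from each other. Mcm7, described in human cells as a partner of the retinoblastoma protein, gave 6612.5, 6772.1 and 6316.6 in cisplatin-treated Rb null cells and 3582.2, 3667.4 and 4030.3 in cisplatin-treated wildtype cells. Its untreated signal was 3996.7, 4298.0 and 4202.4 in Rb null cells and 1738.3, 1559.7 and 1500.2 in wildtype cells. On this probe set, the one counted for Mcm7, the highest cisplatin-treated wildtype array passed the lowest untreated Rb null array.

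Mcm10, the activator outside the ring, gave 539.3, 596.0 and 522.6 in cisplatin-treated Rb null cells and 250.8, 326.1 and 330.2 in cisplatin-treated wildtype cells. Untreated, it gave 353.5, 374.6 and 355.8 in Rb null cells and 231.6, 206.7 and 243.6 in wildtype cells. Its groups did not overlap, but the wildtype groups were close together and the cisplatin-treated Rb null cells far above the other 3 groups.

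**Figure D2:**
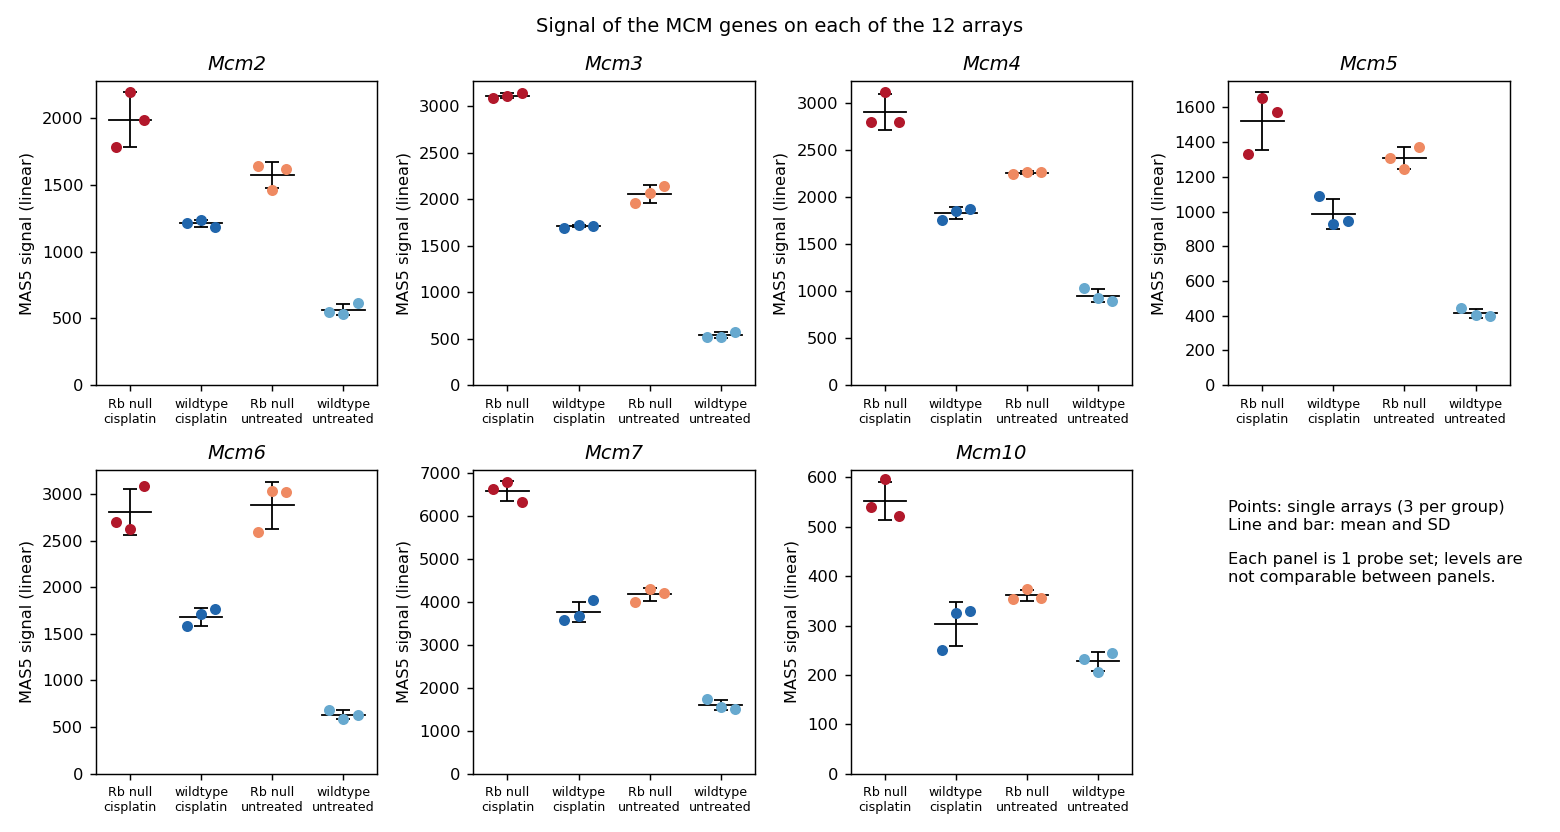
Signal intensity (arbitrary units, axes starting at 0) of the probe set counted for each of the 7 MCM genes on the 12 arrays, 3 per group, with the group mean as a line and the SD as an error bar. The untreated wildtype arrays are the lowest in every panel, and the Rb null groups share a range in Mcm5 and Mcm6.

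Whether loss of Rb raises these genes in untreated cells was asked first. All 7 were higher in untreated Rb null than in untreated wildtype cells, and the change passed an adjusted p under 0.05 and 1.5-fold in limma for each; 8.07% of all tested genes were called higher in this comparison. Changes were log2 ratios of signal plus 10.4, given ± standard error with 3 arrays per group. Mcm6 was higher by 2.17 ± 0.088, or 4.49-fold (adjusted p = 2.62e-10), Mcm3 by 1.92 ± 0.063 (adjusted p = 3.96e-11) and Mcm5 by 1.63 ± 0.093 (adjusted p = 6.46e-09). Mcm2 was higher by 1.46, Mcm7 by 1.38 and Mcm4 by 1.24, with adjusted p from 1.21e-09 to 6.96e-09. Mcm10 was higher by 0.65 ± 0.11, or 1.57-fold (adjusted p = 0.000454), the smallest of the 7, and without untreated wildtype replicate 2 it was at 0.58 and below the minimum fold. The median of the 7 was 1.46 and that of all tested genes -0.01. Ordered from the largest rise among 7945 genes, Mcm6 was at place 25, Mcm3 at 57, Mcm5 at 95, Mcm2 at 144, Mcm7 at 159, Mcm4 at 209 and Mcm10 at 578.

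All 16 probe sets were called higher in untreated Rb null cells, between 0.61 for a probe set of Mcm3 that can cross-hybridize (1449705_x_at) and 2.38 for another of Mcm3 (1426652_at). The 4 probe sets of Mcm7 lay between 1.05 and 1.96, and the second probe sets of Mcm2, Mcm4 and Mcm6 at 1.49, 1.40 and 1.81.

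Of the machinery around the ring, 32 genes were listed, 26 had a probe set and 24 were tested. In untreated Rb null cells 20 of these were called higher and 0 lower, with a median of 1.39. The largest rises were those of Cdc6, which loads the ring, at 2.62 ± 0.39 (adjusted p = 0.000129), Pola1, the catalytic subunit of DNA polymerase alpha, at 2.43 ± 0.15 (adjusted p = 1.65e-08), and Timeless, of the fork protection complex, at 2.32 ± 0.35 (adjusted p = 0.00014). All 4 genes of ring loading and its inhibitor, all 6 tested genes of activation and all 8 tested fork partners were higher. Among the 6 origin recognition subunits only Orc1, at 0.82, and Orc6, at 1.28, were called. Orc2 was at 0.55, Orc5 at 0.49, Orc3 at 0.24 and Orc4 at -0.04. The proliferation genes Mki67, Top2a, Ccna2 and Cdk1, which act in S phase, G2 phase and mitosis, were higher by 2.35, 2.15, 2.01 and 1.88. Macrophage and leukocyte markers were higher in 3 of 13, with summed signals of 7771 to 8133 in Rb null against 5862 to 6179 in wildtype cells, and fibroblast markers in 4 of 15, with 84435 to 87124 against 83823 to 88183. All 4 tested skeletal muscle markers were lower in Rb null cells, with summed signals of 2112 to 2190 per array against 3660.3 to 3733 in wildtype cells, and 2 of 5 tested neural markers were lower, with 2614 to 3141 against 4616 to 5108. Their part in the MCM result was not tested.

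After cisplatin all 7 MCM genes were again called higher in Rb null than in wildtype cells, by 1.53- to 1.81-fold; 9.67% of all tested genes were. Mcm3 was higher by 0.86 ± 0.063 (adjusted p = 8.52e-08), Mcm10 by 0.86 ± 0.11 (adjusted p = 2.28e-05) and Mcm7 by 0.80 ± 0.067 (adjusted p = 2.91e-07). Mcm6 was at 0.73, Mcm2 at 0.70, Mcm4 at 0.66 and Mcm5 at 0.62, all with adjusted p of 7.63e-05 or less. No arrays of the 2 genotypes overlapped for any of the 7. The share of all tested genes without overlap was not counted. Among replication genes not called here, Gins4, at 0.37, and Orc2, at 0.38, did not overlap either, while Orc3 and Orc4 did. The median of the 7 MCM genes was 0.73, and that of all genes -0.05. On the probe sets counted for a gene every estimate was under 2-fold. Mcm5 was below 1.5-fold without Rb null cisplatin replicate b, at 0.55, and without wildtype cisplatin replicate b, at 0.58. The call held for 14 of 16 probe sets, and the second probe sets of Mcm4, at 0.38, and Mcm6, at 0.57, stayed under the minimum fold. Another 4 probe sets were above 2-fold, 1426653_at and 1426652_at of Mcm3 at 2.71- and 2.25-fold, and 1439269_x_at and 1416031_s_at of Mcm7 at 2.62- and 2.07-fold. The means compared here do not include the untreated wildtype arrays. A fit without those arrays called 7 of 7 as well. It keeps the same group means and changes only the spread and the filter, so it is no separate test. The comparison still rests on 1 RNA sample per group.

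Of the 24 replication genes 15 were called higher in Rb null cells after cisplatin and 0 lower (median 0.82). Orc5, at -0.43 with an adjusted p of 0.00531 in limma, and Orc3, at -0.07, were below 0 and not called. Prim1, the primase subunit, was higher by 1.75 ± 0.093 (adjusted p = 4.13e-09), Cdc6 by 1.73 ± 0.39 (adjusted p = 0.00208) and Orc1 by 1.66 ± 0.19 (adjusted p = 6.42e-06). Mki67, at 1.45, and Ccna2, at 0.65, were called higher too, while Cdk1, at 0.24, and Top2a, at 0.17, were not. Markers of cell types moved in the same comparison. Of 13 tested macrophage and leukocyte genes 10 were lower in Rb null cells, with a summed signal of 6054 to 6358 per array against 11694 to 12272 in wildtype cells, and 10 of 15 fibroblast genes were lower, with 51608 to 52562 against 65809 to 69291. Neural genes were higher in 2 of 5, with 2238 to 2943 against 1748 to 2123. Their part in the MCM result was not tested.

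In wildtype cells cisplatin was accompanied by higher signal of the ring genes. All 6 of Mcm2 to Mcm7 were called higher, against 14.8% of all tested genes, and Mcm10 was not. Mcm3 was higher by 1.66 ± 0.063, or 3.16-fold (adjusted p = 3.14e-11), and Mcm6 by 1.40 ± 0.088 (adjusted p = 6.32e-09). Mcm5 and Mcm7 were each at 1.23, Mcm2 at 1.09 and Mcm4 at 0.94, with adjusted p between 1.39e-09 and 6.1e-08. Mcm10 was at 0.39 ± 0.11, or 1.31-fold, below the minimum fold with an adjusted p of 0.0093. The median of the 7 was 1.23, against 0.06 over all genes, and 15 of 16 probe sets were called. The untreated wildtype arrays, which stand apart in sex-linked transcripts, are one side of this comparison, so no value without them can be given.

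With cisplatin in wildtype cells, 14 of the 24 replication genes were called higher and 0 lower (median 0.84). The largest were Cdc6 at 2.34 ± 0.39 (adjusted p = 0.000154), Timeless at 1.92 ± 0.35 (adjusted p = 0.000331) and Cdt1, the partner of Cdc6 in ring loading, at 1.61 ± 0.064 (adjusted p = 5.54e-11). Pola1 was at -0.51, Orc3 at -0.25 and Gins1 at -0.05, and none of them was called. The proliferation genes Ccna2, Cdk1 and Top2a were higher by 1.35, 1.12 and 1.04, and Mki67 was at 0.40 and not called. Fibroblast genes were lower in 6 and higher in 4 of 15, with summed signals of 65809 to 69291 after cisplatin against 83823 to 88183 untreated. Macrophage and leukocyte genes were higher in 5 of 13 tested, with summed signals of 11694 to 12272 after cisplatin against 5862 to 6179 untreated. Skeletal muscle genes were lower in 2 of 4, with 753 to 920.4 against 3660.3 to 3733, and neural genes in 3 of 5, with 1748 to 2123 against 4616 to 5108. Epithelial genes were higher in 2 of 3, with 1457 to 1651 against 756 to 1088. Their part was not tested.

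In Rb null cells the changes with cisplatin were uneven. On the probe sets counted for a gene they were smaller than in wildtype cells for Mcm2 to Mcm7 and larger for Mcm10. Mcm7 was higher by 0.66 ± 0.067, or 1.58-fold (adjusted p = 7.6e-07), Mcm10 by 0.60 ± 0.11 (adjusted p = 0.000308) and Mcm3 by 0.60 ± 0.063 (adjusted p = 1.05e-06), and these 3 of 7 were called, against 16.6% of all tested genes. Mcm3 and Mcm10 lay at 1.51-fold, just past the minimum. Without Rb null untreated replicate 1 only Mcm7 was called, since Mcm3 was then at 0.56 and Mcm10 at 0.58, and quantile normalization left only Mcm10. Mcm4 was at 0.36 (95% interval 0.21 to 0.51) and Mcm2 at 0.33 (0.15 to 0.51), with adjusted p of 0.00036 and 0.00319 but under 1.5-fold. The second probe set of Mcm4 was at 0.28 (0.07 to 0.50). That of Mcm2 was at 0.05 (-0.36 to 0.45) with an adjusted p of 0.846 in limma, and its arrays overlapped. Mcm5 was at 0.21 (0.01 to 0.41) with an adjusted p of 0.0601. Mcm6 was at -0.04 (-0.23 to 0.15, adjusted p = 0.72), but at 0.11 with each array centred on its median and at 0.38 on its second probe set, so its direction is not settled. The median of the 7 was 0.36. That of all genes was -0.02 on the authors' scale and 0.13 with median centring, where 58.0% of called genes were higher in place of 44.9%.

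Of the 16 probe sets, 8 were called higher with cisplatin in Rb null cells and 0 lower, among them all 4 tested of Mcm3, at 0.60 to 1.19, and 3 of 4 of Mcm7. The share of all tested probe sets was not counted. The largest changes were those of 2 probe sets that can cross-hybridize, 1449705_x_at of Mcm3 at 1.19 and 1439269_x_at of Mcm7 at 1.17.

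**Figure D3:**
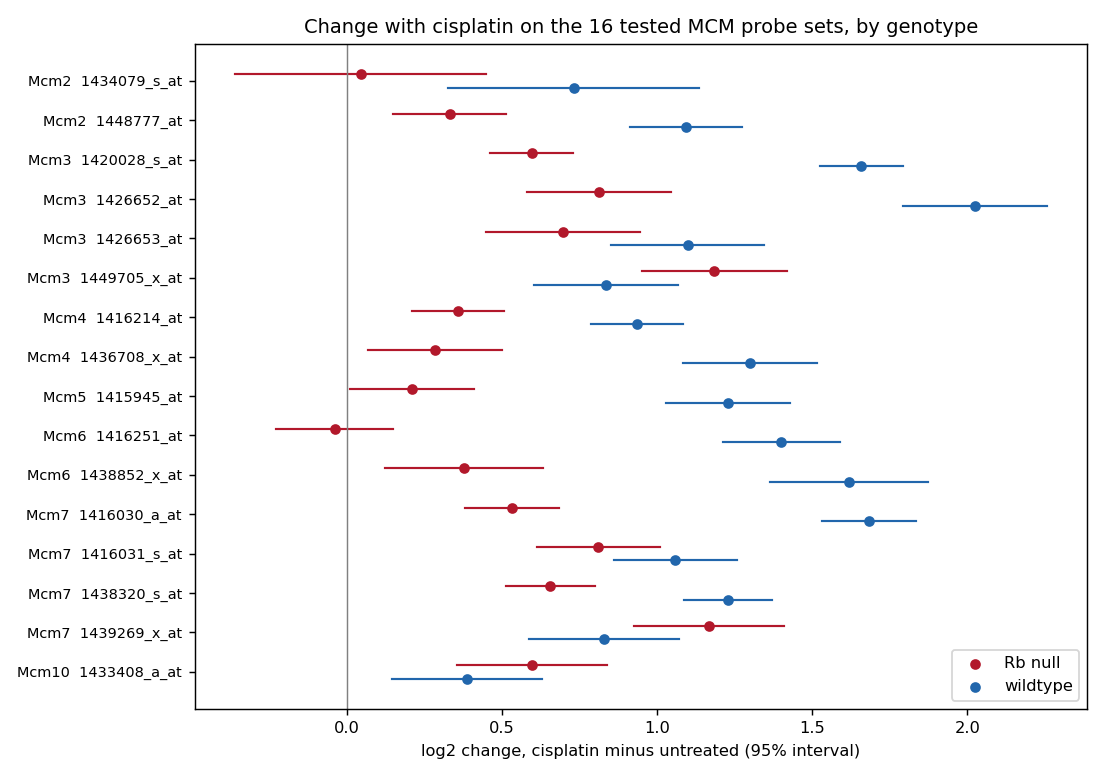
Change with cisplatin (log2, estimate and 95% interval, 3 arrays per group) on each of the 16 tested MCM probe sets, with Rb null above wildtype for each probe set. Among the probe sets counted for a gene, the wildtype point is to the right of the Rb null point for Mcm2 to Mcm7 and to the left of it for Mcm10.

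Of the 24 replication genes, 6 were called higher with cisplatin in Rb null cells and 2 lower, with a median of 0.37, beside 1317 higher and 1615 lower of all 7945 genes. Cdt1 was higher by 1.54 ± 0.064 (adjusted p = 5.99e-11), Cdc6 by 1.45 ± 0.39 (adjusted p = 0.00482) and Orc1, the largest subunit of the origin recognition complex, by 1.42 ± 0.19 (adjusted p = 1.32e-05). Prim1, at 1.05, Orc6, at 0.99, and Tipin, the partner of Timeless, at 0.82, were the other 3. Pola1 fell by 2.77 on the log2 scale (adjusted p = 9.22e-10), to a mean signal of 79.3 in cisplatin-treated cells against 600.1 in untreated cells. Mcmbp, the MCM-binding protein, fell by 0.68 (adjusted p = 1e-06). Among the origin recognition genes, Orc3 at -0.56, Orc5 at -0.46 and Orc4 at 0.46 had adjusted p under 0.05 but stayed under 1.5-fold. None of the 6 tested activation genes was called, and the adjusted p was under 0.05 for 4 of them: Cdc7 at 0.58, Cdc45 at 0.51, Gins1 at -0.48 and Dbf4 at -0.21.

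Among genes of later cell cycle stages, Top2a, the topoisomerase of G2 phase and mitosis, fell by 0.94 with cisplatin in Rb null cells (adjusted p = 4.3e-07) and averaged 1266 ± 153 in treated cells against 2427 ± 40.5 in untreated cells (SD). Mki67 was at -0.49 and Cdk1 at -0.52, with adjusted p under 0.05 but less than 1.5-fold, and Ccna2 at -0.01. Fibroblast genes were lower in 8 of 15, with summed signals of 51608 to 52562 after cisplatin against 84435 to 87124 untreated. Macrophage and leukocyte genes were lower in 9 and higher in 2 of 13, with 6054 to 6358 against 7771 to 8133. Skeletal muscle genes were lower in 2 of 4, with 658 to 775 against 2112 to 2190.3, and epithelial genes higher in 2 of 3, with 1674 to 1895 against 607 to 807. Neural genes were higher in 2 and lower in 2 of 5. Their part in the MCM values was not tested.

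**Figure D4:**
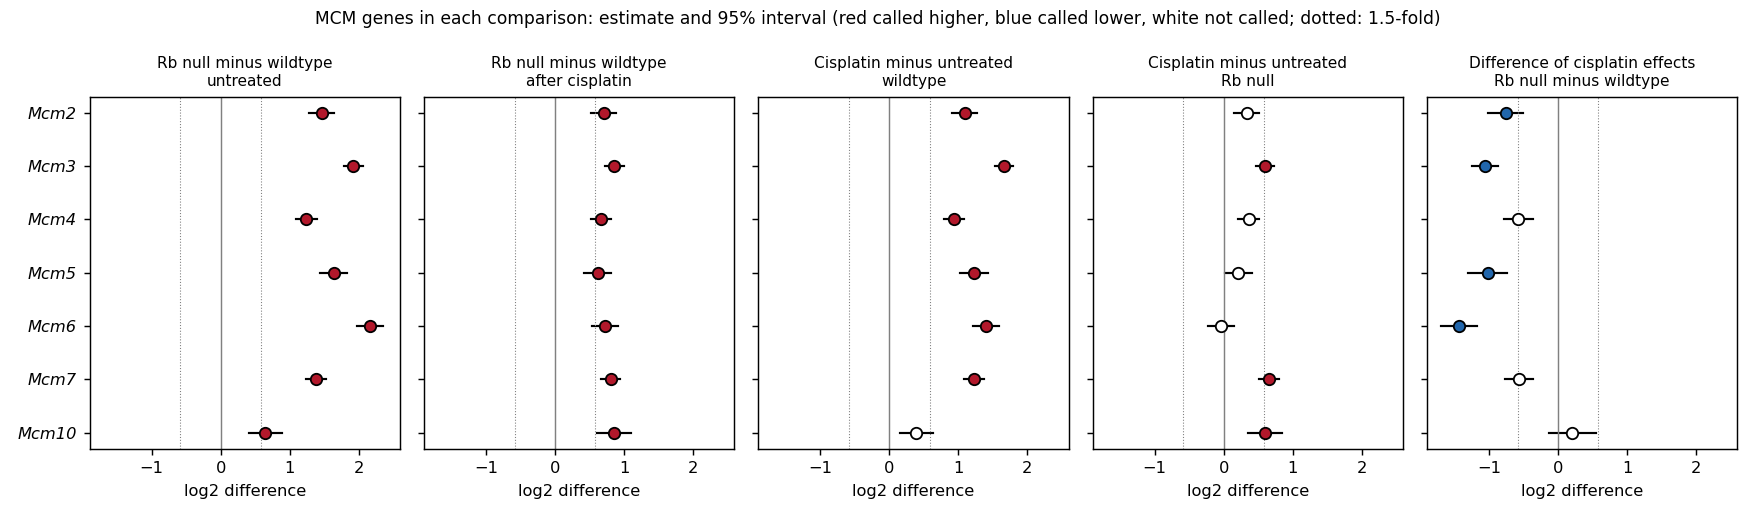
Log2 change of the 7 MCM genes in the genotype and cisplatin comparisons and in the difference between the cisplatin effects, as estimate and 95% interval, with red for genes called higher, blue for genes called lower, white for those not called and dotted lines at 1.5-fold. All 7 points are red in both genotype comparisons, 6 in wildtype cells with cisplatin and 3 in Rb null cells, and 4 are blue in the difference.

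The difference between the cisplatin effects, Rb null minus wildtype, was tested as an interaction in the same fit. It was below 0 for 6 of 7 MCM genes and was called for 4, against 15.0% of all tested genes called lower. Mcm6 had the largest, at -1.44 ± 0.12 (adjusted p = 8.17e-07), followed by Mcm3 at -1.06 ± 0.089 (adjusted p = 6.01e-07), Mcm5 at -1.02 ± 0.13 (adjusted p = 3.69e-05) and Mcm2 at -0.76 ± 0.12 (adjusted p = 0.000203). Mcm4, at -0.58 (adjusted p = 0.000373), and Mcm7, at -0.57 (adjusted p = 0.000302), were just under the minimum fold. Mcm10 was on the other side, at 0.21 with a 95% interval of -0.13 to 0.55 and an adjusted p of 0.33. The median was -0.76, against -0.07 over all genes. With median centring the value over all genes was 0.03, and the share of called genes that were higher was 51.3% with it, 46.0% with quantile normalization and 36.7% without either; Mcm2, Mcm3, Mcm5 and Mcm6 were called lower under all 3. The untreated wildtype arrays enter this difference, and the same arrays serve in several of the comparisons above, which are therefore not independent of each other.

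Probe sets of the same gene did not all give this difference. Of 16, 8 were called lower and 13 were below 0. The shares of all tested probe sets called lower or below 0 were not counted. For Mcm3, 1420028_s_at and 1426652_at were called, at -1.06 and -1.21, while 1426653_at was at -0.40 (adjusted p = 0.0685) and 1449705_x_at at 0.35 (adjusted p = 0.0884). For Mcm7, 1416030_a_at was called at -1.15, while 1416031_s_at was at -0.25 and 1439269_x_at at 0.34. The second probe set of Mcm2 was at -0.69 with an adjusted p of 0.057, and those of Mcm4, at -1.02, and Mcm6, at -1.24, were called.

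Of the 24 replication genes, 11 were called lower in the difference and 1 higher, with a median of -0.63. The largest of those called lower were Pola1 at -2.26 ± 0.21 (adjusted p = 2.18e-06), Pold1, the catalytic subunit of DNA polymerase delta, at -0.99 ± 0.15 (adjusted p = 0.000125) and Orc5 at -0.93 ± 0.16 (adjusted p = 0.000443). Timeless was at -1.31 ± 0.50 and not called, with an adjusted p of 0.0518 in limma. Orc1 was higher, at 0.84 ± 0.27 (adjusted p = 0.024). The loading factors Cdt1, at -0.07, and Cdc6, at -0.89, were not called, with adjusted p of 0.602 and 0.231. In the same difference 10 of 15 fibroblast genes and 10 of 13 macrophage and leukocyte genes were lower and 4 of 5 neural genes higher, and their part was not tested.

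**Figure D5:**
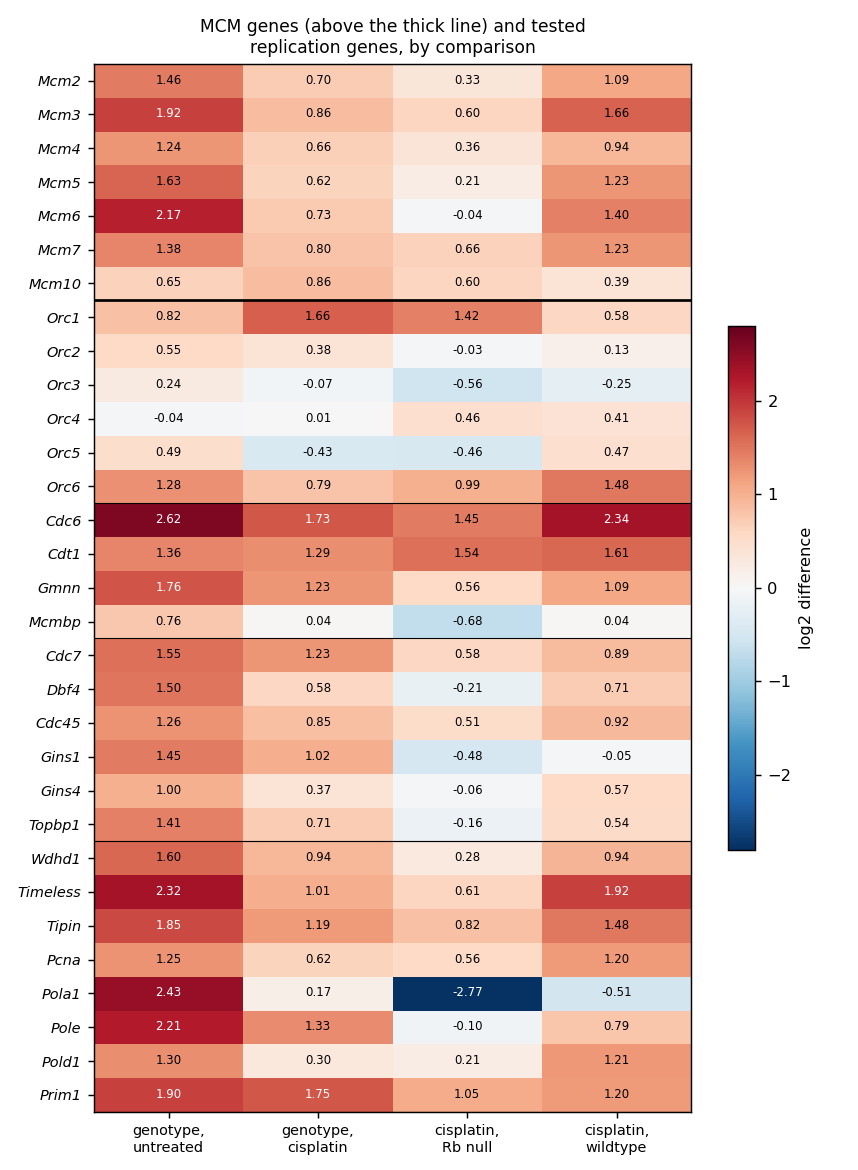
Log2 differences of the 7 MCM genes, above the thick line, and of the 24 tested replication genes, in 4 comparisons shown as columns, with red for higher and blue for lower. The genotype column of untreated cells is red for all MCM genes, and in the column of cisplatin in Rb null cells Pola1 is the deepest blue, at -2.77.

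Among themselves the MCM genes differed mainly through Mcm10 and Mcm6. The log2 signal of each gene over the 12 arrays was correlated with the mean of the standardized signals of the other 6, as a description of arrays that fall into 4 groups and share their scaling. Pearson's r was 0.997 for Mcm4, 0.991 for Mcm2, 0.990 for Mcm3, 0.986 for Mcm7, 0.979 for Mcm5, 0.958 for Mcm6 and 0.892 for Mcm10. Among 7938 other genes, those most like the mean of all 7 were Wdr90 (0.995), Chaf1b (0.993), Pttg1 (0.992), Tipin (0.992), Ercc6l (0.992), Fam111a (0.992), Slc43a3 (0.990) and Gmnn (0.990). Chaf1b, a subunit of the chromatin assembly factor, averaged 908 and 451 in cisplatin-treated Rb null and wildtype cells, and 704 and 177 in untreated Rb null and wildtype cells. Gmnn encodes geminin, the inhibitor of Cdt1, and averaged 1151 and 486 in cisplatin-treated Rb null and wildtype cells, and 778 and 223 in the untreated ones. Both follow the order of the 4 groups that 6 of the 7 MCM genes have. They were picked by likeness over the same 12 arrays, so this is no separate result.

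On GRCm38 the members lie on 6 chromosomes, Mcm3 and Mcm6 both on chromosome 1. Mcm4 (chr16:15623897-15637400) lies 43 bases from Prkdc, the catalytic subunit of the DNA-dependent protein kinase. Prkdc signal was too weak to be tested and averaged 27.5 and 22.7 in cisplatin-treated Rb null and wildtype cells, against 161 and 123 in untreated Rb null and wildtype cells. It thus lacked the order of groups that Mcm4 has. Mcm7 (chr5:138164583-138172111) overlaps at its outer 5′ end with Ap4m1, an adaptor complex subunit on the other strand. Ap4m1 begins at 138172021, upstream of both Mcm7 starts whose windows were searched. Ap4m1 was called higher in Rb null cells after cisplatin, at 0.71, and was at 0.24 in the genotype comparison of untreated cells, where Mcm7 was at 1.38. The microRNA genes Mir25, Mir93 and Mir106b lie within Mcm7 and were not analysed here.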

How the data were processed

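Total RNA of the 4 groups was measured on 12 Affymetrix arrays. The deposited values are signal intensities per probe set, made by the authors with MAS5, per the submitters' processing notes; its version, scaling target and detection calls are not given in the sources used here, so no background level was set and the number of arrays limits the precision. Groups came from the sample titles.

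The analysed unit was log2 of the deposited intensity plus 10.4, which is the 10th percentile of all values and makes changes of weak genes look smaller. The 64 control probe sets and the weakest 40% by mean log2 signal were set aside from the 22690. One limma model (limma 3.58.1, R 4.3.3) gave each group its own mean over the 12 arrays (lmFit, eBayes with a variance trend, 8 residual and 6.09 prior degrees of freedom), and a probe set was called at a two-sided Benjamini-Hochberg adjusted p under 0.05 over 13575 tests and at least 1.5-fold. The fit was tested on simulated data. A gene was counted through 1 probe set, an _x_at and the like only where it had no other, then the one with the highest mean. The platform annotation gave 20393 probe sets a single symbol, 691 several and 1555 no entry; loci and start regions are those of RefSeq on GRCm38, matched by symbol, and the build of the array annotation is not given in the sources used here.

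All members were named. Of a list of 32 replication genes, the 3 called genes with the largest rise and fall and those called against the members were named, with other members of a list beside them; likeness names the 8 highest correlations. Members, lists and tests were chosen with earlier results of these data known. Alternatives were other pseudocounts, filters, scalings, fold minimums and probe sets, no variance trend, fewer groups, a replicate block and each array left out. Hybridizations of the same number did not deviate together (r from -0.19 to 0.11), so the numbers were not taken as pairs.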

Additional observations from a re-analysis of the deposited data

Results flagged for a closer look

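The change with cisplatin differed between Rb null and wildtype cells for 4 of the 7 MCM genes, tested as an interaction in limma with adjusted p under 0.05 and a ratio of at least 1.5. The difference of the log2 changes, Rb null minus wildtype, was -0.76 for Mcm2, -1.06 for Mcm3, -1.02 for Mcm5 and -1.44 for Mcm6. In each, every wildtype array was higher after cisplatin than untreated, and in Mcm5 and Mcm6 the Rb null arrays overlapped between treatments. For Mcm2 and Mcm3 the call was not made on the second probe set, at -0.69 and -0.40. The difference contains the untreated wildtype arrays, which stand apart in sex-linked transcripts, and the part of that in it was not tested.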

How the results depend on the processing

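Counts of MCM genes called were within 1.5 times of the reported ones under every alternative run, except these. After cisplatin, 0 of 7 genes were called between genotypes at a 2-fold minimum, in place of 7. For cisplatin in Rb null cells, in place of 3, quantile normalization gave 1, no minimum fold 5 and a 2-fold minimum 0. Leaving out each array in turn gave 6 to 7 for genotype in untreated cells, 6 to 7 after cisplatin, 6 for cisplatin in wildtype cells, 1 to 3 in Rb null cells and 4 to 6 for the difference of the cisplatin effects. The 1 came without Rb null untreated replicate 1. Mcm6 with cisplatin in Rb null cells changed sign with median centring (0.11), on its second probe set (0.38) and without Rb null cisplatin replicate b (range with an array left out -0.11 to 0.0086); the cause was not tested.

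With the 1 to 3 and a to c of the titles as a replicate block, 7 genes were called between genotypes in each treatment and 4 in the difference, the same counts as without it. Each block holds 1 array of each genotype, so the estimates are the same by design and only the spread can change. Mcm6 stayed at -1.44, with an adjusted p of 3.32e-05 in this limma fit. Mcm4 and Mcm7, just under the minimum in the difference, were called there with quantile normalization (-0.62 and -0.68) and on their second probe sets (-1.02 and -1.15). Mcm10 in untreated cells was under the minimum fold with 45.8 as the added constant (0.58).

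Counts over all genes depend on the minimum fold. Called higher or, for the difference, lower were 641 genes for genotype in untreated cells (1486 without a minimum, 290 at 2-fold), 768 after cisplatin (1822 and 235), 1175 for cisplatin in wildtype cells (2545 and 476), 1317 in Rb null cells (2483 and 598) and 1194 in the difference (1917 and 468). Without detection calls, weak signals such as those of Mcm10 have no known distance from background.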
